A study of Mus musculus with 21 samples.

Results

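Chromatin regions that opened immediately after exhaustive running in both trained and untrained muscle, and were no longer listed as changed 6 h later, were examined in nuclei of mouse muscle fibres. These transient shared gains numbered 935 of the 41411 regions listed as changed in at least 1 contrast of the series, or 2.26%. A region was a member if its accessibility exceeded the sedentary level at 0 h in trained muscle and in untrained muscle, and if the same coordinates were absent from both lists at 6 h. The members were therefore selected on the 0 h and 6 h contrasts, and their 0 h values are given as a description.

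Accessibility was mapped by ATAC-seq, in which a transposase cuts open DNA, in nuclei enriched from quadriceps with a magnetic antibody against PCM1, a protein at the envelope of muscle fibre nuclei. All mice were adult male C57/Bl6 wild-type animals. Trained mice had 12 weeks of voluntary wheel running, ended by an exhaustive treadmill run, and were taken 0, 6 or 72 h after it. Untrained mice did the same run without prior training and were taken at the same times, and sedentary mice neither trained nor ran. The 21 samples formed 7 groups of 3. With no trained group at rest, the effects of training and of running cannot be told apart in the trained contrasts, and all contrasts share the same sedentary samples.

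Contraction raises calcium and adrenergic signals in the fibre, and adrenergic signals raise cAMP. Protein kinase A then phosphorylates CREB, a factor that binds the cAMP response element (CRE) together with its CRTC coactivators. In muscle this pathway is best known for switching on Ppargc1a, which encodes the coactivator PGC-1α that drives mitochondrial biogenesis. AP-1, formed by Fos and Jun proteins, binds a motif that differs from the CRE by lacking its central base pair. Its subunits are products of immediate early genes, which are transcribed within minutes of a stimulus.

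Short stretches of 8 members are shown because the shares of regions with these motifs differed between the transient gains and the shared gains still listed at 6 h. Each is 81 bases of GRCm39, plus strand, centred on the match, and lies outside exons. Capitals mark the CRE, TGACGTCA, in the first 6 and the AP-1 site, TGACTCA, in the last 2.
Vav3, chr3:109710972-109711052: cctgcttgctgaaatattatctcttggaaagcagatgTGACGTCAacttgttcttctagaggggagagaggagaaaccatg
Tent4a, chr13:69703155-69703235: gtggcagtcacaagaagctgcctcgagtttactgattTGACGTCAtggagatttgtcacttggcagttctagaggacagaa
Pdlim5, chr3:142121212-142121292: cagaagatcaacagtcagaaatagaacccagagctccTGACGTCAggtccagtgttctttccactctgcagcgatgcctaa
Adk, chr14:21318479-21318559: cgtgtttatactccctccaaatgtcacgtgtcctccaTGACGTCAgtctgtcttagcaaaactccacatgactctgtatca
Efr3b, chr12:4093629-4093709: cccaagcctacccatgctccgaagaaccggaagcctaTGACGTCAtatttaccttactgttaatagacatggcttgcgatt
Rcan2, chr17:44341937-44342017: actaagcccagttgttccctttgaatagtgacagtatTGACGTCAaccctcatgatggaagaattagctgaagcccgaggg
Atp1b1, chr1:164319193-164319273: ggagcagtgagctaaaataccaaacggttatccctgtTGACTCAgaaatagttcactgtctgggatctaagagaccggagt
Smad3, chr9:63640150-63640230: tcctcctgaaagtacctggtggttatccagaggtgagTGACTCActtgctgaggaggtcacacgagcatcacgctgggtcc

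The members made up 45.0% of the 2077 regions gained at 0 h in both states. In these contrasts 6.98% of 63953 tested regions were listed as gains in trained muscle at 0 h and 5.12% in untrained muscle. Since the rule used both contrasts, nothing is read from these shares. Of the other 1142 shared gains, 683 were listed at 6 h as gains in untrained muscle only, 5 as gains in trained muscle only and 376 as gains in both. A further 78 were listed at 6 h as losses, 56 of them in trained muscle only, 7 in untrained muscle only and 15 in both. At 6 h, 18.4% of tested regions were listed in either direction in trained muscle and 13.1% in untrained muscle. A member is a region that did not pass the threshold at 6 h, and a smaller change there is not visible in the lists used here.

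Levels are given as the authors' group means, on the log2 scale of normalised read counts (called concentration), and a change is the difference of an exercised group from the sedentary group. Over the 935 members the median change was 1.03 in trained muscle (0.45 to 3.73) and 1.07 in untrained muscle (0.48 to 2.87). The median sedentary level was 7.66 in members and 7.25 in the shared gains that were listed at 6 h. It was 7.38 in gains listed in trained muscle only and 8.22 in those listed in untrained muscle only. Over all other listed regions it was 8.94, but their median change at 0 h was -0.87 in trained and -0.86 in untrained muscle. The rule used the sedentary level, so nothing is read from these differences. The change was at least 1, a doubling or more of the read count, in 489 members in trained muscle and in 536 in untrained muscle. No spread between samples can be given, as the tables hold means only.

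At the lower edge of the set, the member with the smallest change lay near Klf2, an early response factor, at 0.45 in trained and 1.09 in untrained muscle. The next members lay near Adgrv1 (0.48 in trained and 0.76 in untrained muscle) and Trim44 (0.68 in trained and 0.48 in untrained muscle). Just outside it were regions listed with opposite directions in the 2 states, 51 of 17265 in all. Those nearest to no change lay near the actin-binding protein gene Xirp2 (-0.50 in trained and 0.52 in untrained muscle), Prex2 (0.48 in trained and -0.60 in untrained muscle) and Trdn, which encodes triadin of the calcium release complex (0.59 in trained and -0.60 in untrained muscle).

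Regions were linked to the protein-coding gene with the nearest start site, a link by distance that shows no regulation. The deposited tables give the same gene name for only 305 of the 935 members (32.6%), and the gene positions printed there lie on another genome build. The member with the largest mean change lay inside Ppargc1a, over an exon at chr5:51647044-51647826 and 63438 bp downstream of the nearest start site. Its level was 8.26 in trained muscle and 6.77 in untrained muscle at 0 h, against 4.54 in sedentary muscle, which is 13.2-fold higher in trained and 4.72-fold higher in untrained muscle. That sedentary level was the lowest of all 935 members, so these ratios rest on a low read count. An intron of Bach2, which encodes a transcriptional repressor of the basic leucine zipper family, was close behind (chr4:32314697-32315459). It stood at 9.73 in trained and 9.55 in untrained muscle, against 6.68 in sedentary muscle, so the 2 exercised states were almost alike. The member nearest to Vav3, a guanine nucleotide exchange factor, lay within a neighbouring gene, Ntng1 (chr3:109710760-109711291), with levels of 9.33 in trained, 8.88 in untrained and 6.46 in sedentary muscle.

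Further strong members lay near Pdlim5, Adk and Atp1b1. Upstream of Pdlim5, a PDZ and LIM scaffold protein of the Z-disc, a member at chr3:142120824-142121527 reached 10.04 in trained and 10.44 in untrained muscle, against 7.85 in sedentary muscle. Within Adk, encoding adenosine kinase, which clears adenosine, the level was 8.68 in trained and 7.43 in untrained muscle, against 5.76 in sedentary muscle (chr14:21318258-21318707). Upstream of Atp1b1, the beta subunit of the sodium pump, it was 9.32 in trained and 8.66 in untrained muscle, against 6.72 in sedentary muscle (chr1:164319029-164319622). All 3 regions were intronic or intergenic. The remaining members among the 15 with the largest mean change lay nearest to Tent4a, Frmd5, Zfp704, Ccny, Egln3, Hrh4, Tmem38b, Tut7 and Ap3b1, with changes of 1.73 to 2.65 in trained and 1.71 to 2.64 in untrained muscle.

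**Figure D1:**
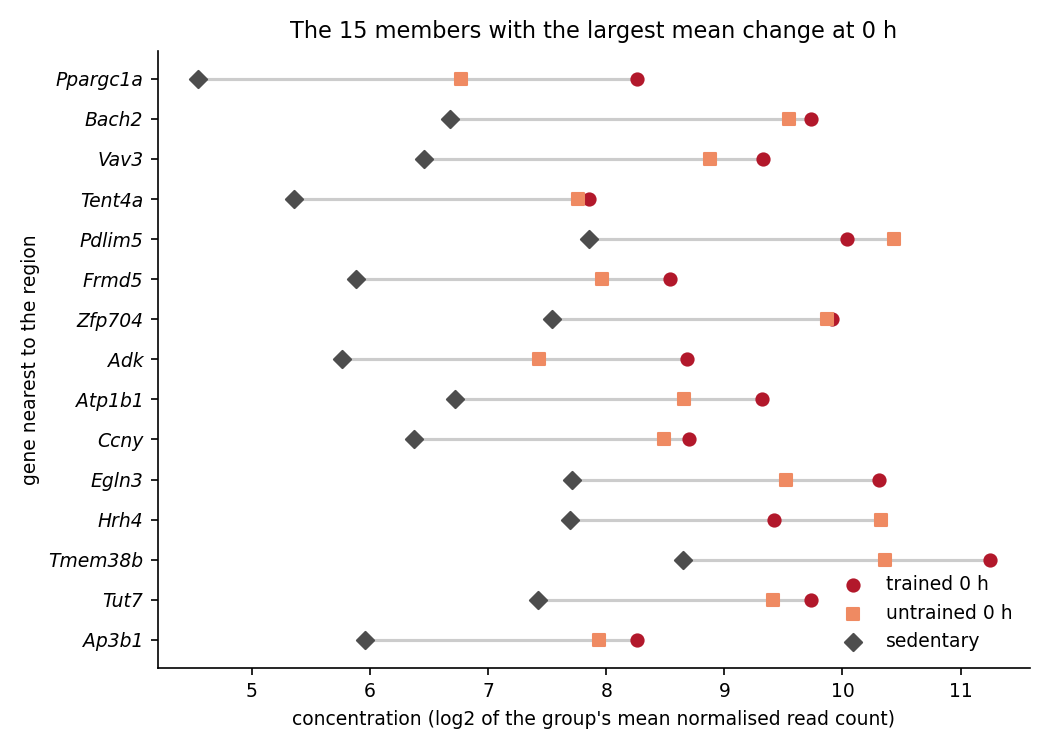
Concentration (log2 of the authors' group mean normalised read count, horizontal axis) of the 15 members with the largest mean change, named by nearest gene, in trained muscle at 0 h (circles), untrained muscle at 0 h (squares) and sedentary muscle (diamonds). Sedentary muscle is lowest in each row, at 4.54 for Ppargc1a, and untrained muscle is above trained muscle only for Pdlim5 and Hrh4.

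The 2 states opened the members to a similar degree as a set but not region by region. The change was larger in trained muscle in 440 of 935 members (47.1%), and the median difference, trained minus untrained, was -0.02 with quartiles of -0.29 and 0.24. Among the 333 members with a change of at least 1 in both states, the side turned, with 55.6% larger in trained muscle. In 50 members the changes differed by at least 1. Of these, 33 were larger in trained muscle, among them 12 of the 19 members of Ppargc1a, and 17 were larger in untrained muscle. The regions are those listed in both states, so a region that opened strongly in 1 state and little in the other was less likely to be a member.

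Members with the larger change in trained muscle included, besides Ppargc1a, a region 47546 bp downstream of the start of Mstn, the gene of the growth inhibitor myostatin. It stood at 7.90 in trained and 6.26 in untrained muscle, against 4.96 in sedentary muscle. The others under the naming rule lay in Dnm3, a dynamin, in Wfs1, an endoplasmic reticulum protein, and in Esrrg, the oestrogen-related receptor gamma of oxidative fibres. Their changes were 2.61, 2.64 and 2.21 in trained muscle, and 1.11, 1.14 and 0.77 in untrained muscle.

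Those with the larger change in untrained muscle lay near Ramp3, a receptor activity modifying protein, Efr3b, Tmem87a, Irs2 and Elp3. Here the changes were 0.77 to 1.32 in trained and 2.11 to 2.62 in untrained muscle. The Irs2 region (chr8:11033367-11035552) sat at the 3′ end of this insulin receptor substrate gene, with levels of 9.01 in trained, 10.32 in untrained and 7.69 in sedentary muscle.

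**Figure D2:**
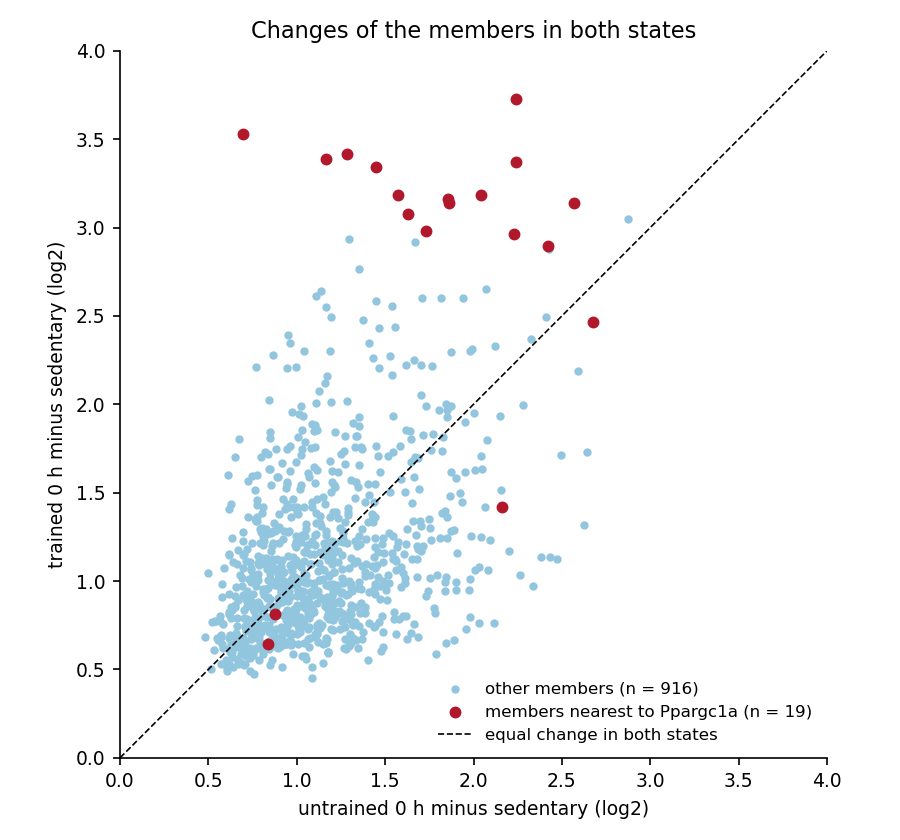
Change of each of the 935 members at 0 h, with the untrained change on the horizontal and the trained change on the vertical axis (both log2 differences from sedentary muscle); the dashed line marks equal change. The cloud straddles the line, with 47.1% of members above it, and 15 of the 19 members nearest to Ppargc1a (red) lie above it.

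Most genes with a member had 1, and a few held runs of them. Members were linked to 694 genes, or 3.19% of the 21751 protein-coding genes, of which 569 had 1 member each. Another 25 genes held 4 or more and together 144 members. In all, 187 members (20%) had another member within 10 kb, so neighbouring members are not independent observations.

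Ppargc1a led with 19 members covering 98843 bp, 17 of them with the midpoint inside the gene. A member 10635 bp from the nearest start changed by 2.47 in trained and 2.68 in untrained muscle. Another, at 13184 bp, changed by only 0.82 in trained and 0.88 in untrained muscle. The most distal, at 99151 bp, had its midpoint 3692 bp past the end of the gene and changed by 3.53 in trained and 0.69 in untrained muscle. Pdlim5 followed with 9, and Irs2, Klf14, Mical2 and Pde4d had 7 each. Klf14 is a Kruppel-like factor gene, Mical2 encodes an actin-oxidising monooxygenase and Pde4d a cAMP phosphodiesterase. Trained muscle had the larger change in 15 of the 19 Ppargc1a members, against 1 of 9 at Pdlim5, 1 of 7 at Irs2 and 1 of 7 at Pde4d. Hdac4, a class IIa histone deacetylase, and Ppp1r12b, a myosin phosphatase subunit, had 6 members each, as did Retreg1 and Zbtb16.

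**Figure D3:**
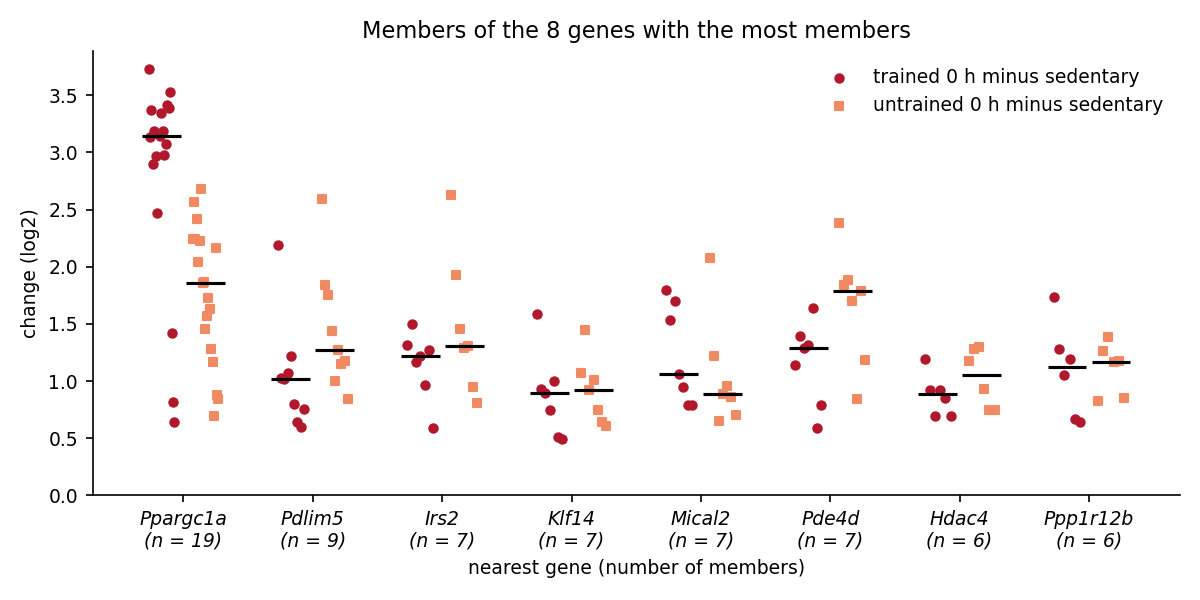
Change at 0 h (log2, vertical axis) of every member of the 8 genes with the most members, in trained muscle (circles) and untrained muscle (squares), with black lines at the medians; ties in member number were ordered by name. Ppargc1a stands apart in trained muscle with a median change of 3.14, against 1.85 in untrained muscle.

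Most members lay away from promoters. A region within 1 kb of a protein-coding start site was counted as a promoter, which applied to 49 members, or 5.24% (95% Wilson interval 3.99 to 6.86), against 18% of all other listed regions. The difference was -12.8 percentage points (95% Newcombe interval -14.1 to -11.1). Shared gains listed at 6 h were at promoters in 4.47%, a difference of 0.775 points (-1.07 to 2.71), so the 2 classes of shared gain could not be separated by it. Gains listed at 0 h in untrained muscle only were at promoters in 9.12%, and those listed in trained muscle only in 3.33%. With start sites of any gene type, noncoding genes included, the share was 20% in members and 31.3% in all other listed regions. Intervals cover counting error only. The median distance to a protein-coding start was 26238 bp in members, against 14362 bp over all other listed regions, and 61.3% of members had the midpoint inside a protein-coding gene, against 67.0%.

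Among the promoter members was that of Id1, an inhibitor of basic helix-loop-helix factors, which had 9.09 in trained and 8.73 in untrained muscle, against 7.03 in sedentary muscle. Promoters of Optn, an autophagy receptor, and of Dnmt3a, a DNA methyltransferase, opened by 1.83 and 1.70 in trained muscle and by 1.77 and 1.69 in untrained muscle. The start of any protein-coding transcript was counted, so a promoter can lie inside a gene. The Dnmt3a member had its midpoint at 0.82 of the length of the gene, and the Chrna9 promoter member at 0.73. Zbtb38, a methyl-CpG binding zinc finger protein, changed by 1.34 in trained and 1.66 in untrained muscle at its promoter. A promoter member of Ppargc1a, 25021 bp wide, had 13.76 in trained and 14.50 in untrained muscle, against 12.34 in sedentary muscle. Promoters named by the rule also included those of Chrna9, Cpn1, Gbp10 and Ms4a18, with changes of 1.28 to 1.75 in trained and 1.08 to 1.87 in untrained muscle.

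Broad regions were more frequent among members than among the shared gains listed at 6 h. Members had a median width of 591 bp, and 55 (5.88%) exceeded 2 kb, against 0.788% of the shared gains listed at 6 h, a difference of 5.09 points (3.59 to 6.83). Ppargc1a accounted for 12 of the 55. Without its regions the share was 4.69% (3.50 to 6.26). Over all other listed regions it was 4.43%. Gains listed at 0 h in untrained muscle only exceeded 2 kb in 8.61%, a larger share than in members, and those listed in trained muscle only in 1.14%. The widest member covered 30126 bp of Zbtb16, a transcription factor gene known to respond to glucocorticoids, with levels of 13.84 in trained and 14.16 in untrained muscle, against 13.20 in sedentary muscle. Hk2, encoding the hexokinase that phosphorylates glucose on entry into muscle, held broad members of 16228 and 14287 bp. The narrower of these changed by 2.28 in trained and 0.86 in untrained muscle, and the other by 1.18 in trained and 0.72 in untrained muscle.

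The base sequence at the centre of the regions differed between the members and the shared gains listed at 6 h. The exact letters of 15 motifs were searched on both strands in the 300 bp around the midpoint of every listed region, a measure that the selection did not use. The CRE was found in 58 members, 6.20% (4.83 to 7.94), against 2.28% (1.56 to 3.32) of the shared gains listed at 6 h. The difference was 3.93 points (2.20 to 5.80). Over all other listed regions the share was 0.729%, which is 5.47 points below that of members (4.10 to 7.21). A match describes letters and does not show that a factor was bound.

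The AP-1 site had the opposite distribution between the 2 classes of shared gain. It was found in 209 members, 22.4% (19.8 to 25.1), against 57.8% (54.9 to 60.6) of the shared gains listed at 6 h, a difference of -35.4 points (-39.3 to -31.4). Over all other listed regions 10.1% held it, fewer than among members by 12.3 points (9.70 to 15.1). Gains listed at 0 h in trained muscle only held the CRE in 0.422% and the AP-1 site in 44.7%, whereas gains listed in untrained muscle only held the CRE in 6.28% and the AP-1 site in 14.5%. In CRE share the members differed from the gains of untrained muscle only by -0.0791 points (-2.15 to 2.06).

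Of the members with a CRE, 54 of 58 (93.1%) lay away from promoters, close to the 94.8% of all members. No member with a CRE in the central 300 bp was nearest to Ppargc1a. That window covers only a part of the wide Ppargc1a regions, the widest of which measured 25021 bp. Outside promoters the share was 6.09% in members, 2.38% in shared gains listed at 6 h and 0.557% in all other listed regions. The 2 motifs were seldom together in a member, as 48 members had the CRE alone, 199 the AP-1 site alone, 10 both and 678 neither.

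**Figure D4:**
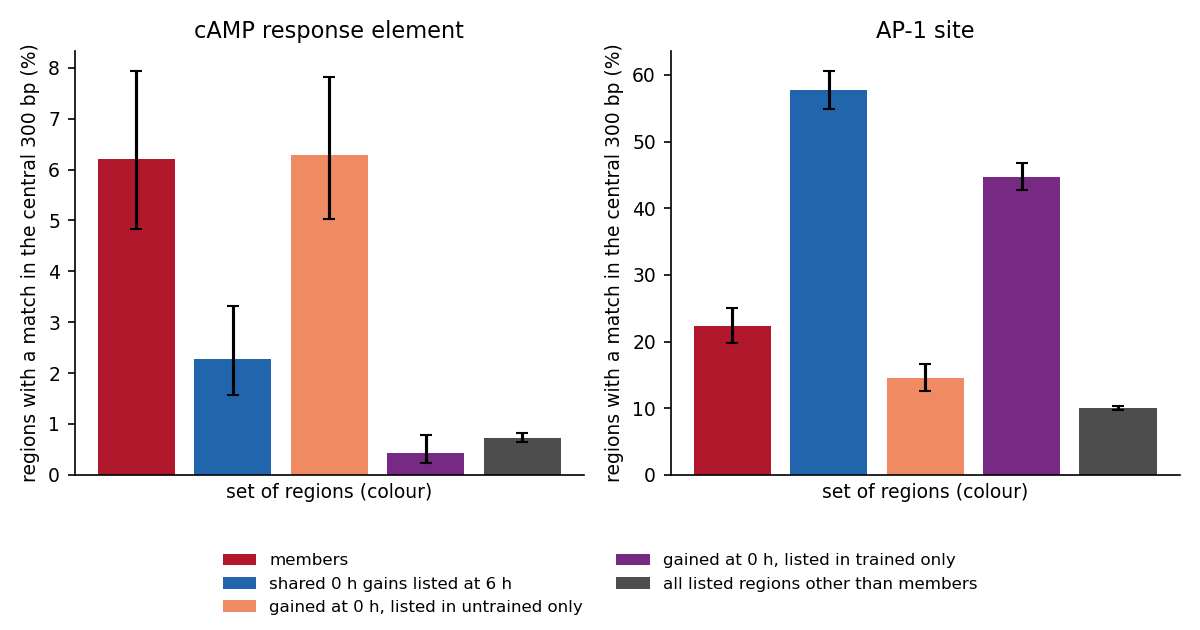
Share of regions (%, vertical axes, different scales) with an exact CRE (left) or AP-1 site (right) in the central 300 bp, for members, shared gains listed at 6 h, gains listed in untrained or trained muscle only and all other listed regions; bars are shares and lines 95% Wilson intervals. Members are at 6.20% for the CRE and 22.4% for AP-1, while shared gains listed at 6 h are at 2.28% and 57.8%.

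Where present, the CRE sat close to the middle of the shared gains of both classes. Within 500 bp of the midpoint of members there were 71 matches, of which 52 (73.2%) lay within 100 bp of it. In shared gains listed at 6 h this central share was close to it, at 23 of 32 matches (71.9%), so members differed from them in how many regions held a CRE. In all other listed regions it was 43.4% of 528 matches. For the AP-1 site the central share was 40.4% of 406 matches in members and 65.7% of 1132 matches in shared gains listed at 6 h. In all other listed regions it was 37.2% of 9757 matches, close to the share in members.

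**Figure D5:**
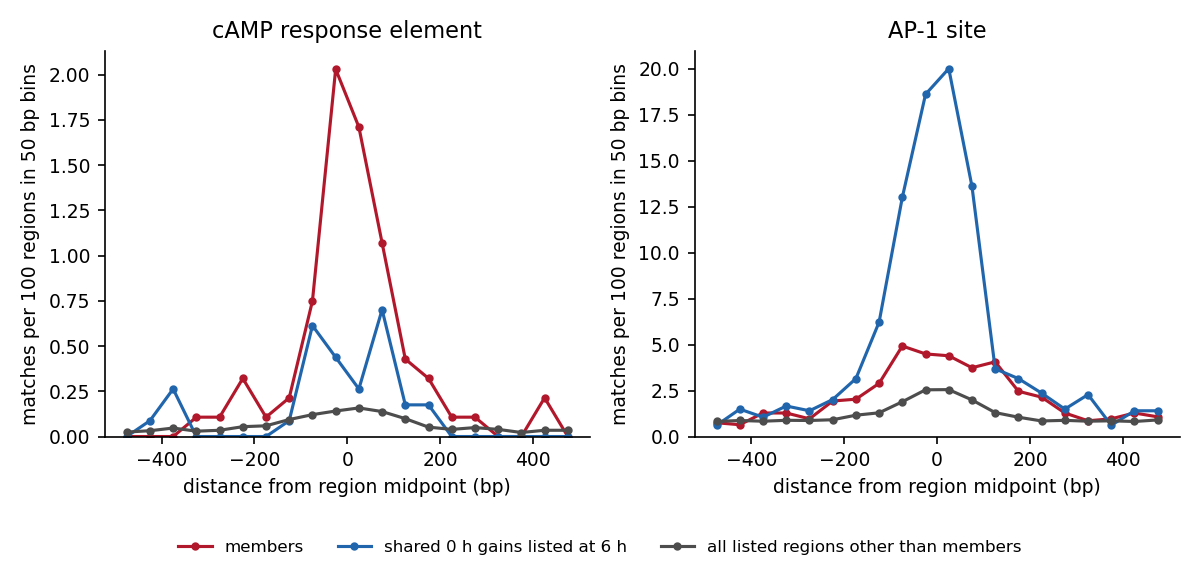
Matches per 100 regions in bins of 50 bp (vertical axes, different scales) by distance from the region midpoint (bp) for the CRE (left) and the AP-1 site (right), in members, shared gains listed at 6 h and all other listed regions. CRE matches lie within 100 bp of the midpoint in 52 of 71 cases in members and in 23 of 32 in shared gains listed at 6 h, while AP-1 matches do so in 40.4% in members and in 65.7% in shared gains listed at 6 h.

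Members with a CRE changed more in untrained muscle more often than not. The 48 members with the CRE and no AP-1 site had a median change of 1.0 in trained and 1.43 in untrained muscle, and 15 of them (31.2%) changed more in trained muscle. So did 3 of the 10 members with both motifs and 314 of the 678 with neither (46.3%). In the 199 members with the AP-1 site alone the medians were 1.0 in trained and 0.96 in untrained muscle, and 108 changed more in trained muscle. The nearest gene was on the cAMP and CREB signalling list for 3 of the 58 members with a CRE (5.17%) and for 20 of the 877 without (2.28%), a difference that was not tested. CRE members with the larger change in trained muscle included those near Adk (2.92 in trained, 1.67 in untrained) and Cog6 (2.48 in trained, 1.38 in untrained). These and the following CRE members were picked after their values were seen, and all of the following changed more in untrained muscle. Of the phosphodiesterase genes, which encode enzymes that degrade cyclic nucleotides, Pde10a, Pde4d and Pde7b had CRE members that changed by 1.17, 1.40 and 1.03 in trained muscle and by 2.20, 1.84 and 1.52 in untrained muscle. A CRE member at the promoter of Adcy8, an adenylyl cyclase that makes cAMP, changed by 1.02 in trained and 1.46 in untrained muscle. Rxra, the retinoid X receptor, and Mef2d, a muscle enhancer factor, had CRE members with changes of 0.99 and 0.89 in trained muscle and of 1.84 and 1.06 in untrained muscle.

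Other motifs differed less. The E-box CACGTG, bound by CLOCK and by other basic helix-loop-helix factors, was in 9.30% of members against 6.04% of shared gains listed at 6 h, a difference of 3.26 points (0.973 to 5.64), and in 5.27% of all other listed regions. The CRE variant TGACGCAA was in 15 members, 1.60%, against 0.876% of shared gains listed at 6 h (difference 0.729, -0.234 to 1.83) and 0.247% of all other listed regions. A MEF2 site was in 2.46% of members, against 4.47% of shared gains listed at 6 h, a difference of -2.01 points (-3.59 to -0.406), and in 2.45% of all other listed regions. The glucocorticoid response element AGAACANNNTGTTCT was in 2 members, near Fry and Pappa, or 0.214%, against 0.0876% of shared gains listed at 6 h (difference 0.126, -0.309 to 0.694) and 0.0173% of all other listed regions.

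For the muscle E-box CAGCTG (26.5% of members), the TEAD site GGAATG (21%), the FOXO site TGTTTAC (4.81%), the NR4A site AAAGGTCA (3.64%), the SRF site or CArG box (1.5%), the KLF site GGGCGTGG (0.963%), the ERR site TCAAGGTCA (0.535%) and the heat shock element GAANNTTCNNGAA (0.535%), the interval of the difference from shared gains listed at 6 h included 0. Their shares over all other listed regions were 27.0% for the muscle E-box, 16.7% for TEAD, 4.19% for FOXO, 2.52% for NR4A, 1.42% for SRF, 1.82% for KLF, 0.850% for ERR and 0.502% for the heat shock element. The NRF1 site GCGCATGCGC was in 0 of 935 members, which allows a share of up to 0.409%, and in 0.188% of all other listed regions. The median GC content was 48.3% in members, 47.6% in shared gains listed at 6 h and 50.6% in all other listed regions. The pair CG, which is part of the CRE, had a median of 14 per kb in members and 11.9 in shared gains listed at 6 h. It was 15.5 in gains listed in untrained muscle only, 11.4 in those listed in trained muscle only and 14.4 in all other listed regions. Whether it bears on the motif shares was not tested.

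Gene lists were read against the 3.19% of protein-coding genes with a member. The lists are described and not tested, and genes with more listed regions have more chances to hold a member. The 3.19% also counts genes without any listed region, whereas 22 of the 24 insulin receptor signalling genes had 1 or more. Insulin receptor signalling had members at 9 of 24 genes, the highest share of any list at 37.5%, with medians over its 26 members of 1.23 in trained and 1.18 in untrained muscle. Among these were Igf1r, the receptor of insulin-like growth factor 1, the substrates Irs1 and Irs2, the adaptor Grb10, the kinase subunit Pik3ca, the phosphatase Ptpn1, the pseudokinase Trib1 and the ubiquitin ligase Cblb. The leading Igf1r member changed by 1.82 in trained and 1.34 in untrained muscle, and that of Irs1, which lay 535568 bp from its start site, by 1.93 in trained and 1.35 in untrained muscle.

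cAMP and CREB signalling had members at 8 of 28 genes (28.6%), namely the kinases Sik1 and Sik3, which hold CRTC coactivators out of the nucleus, the phosphodiesterases Pde4b, Pde4d, Pde7b and Pde10a, and the adenylyl cyclases Adcy2 and Adcy9. Adcy8 is not on that list. Their 23 members had medians of 1.27 in trained and 1.45 in untrained muscle. The leading Sik1 member, 1395 bp past the end of the gene, had a level of 9.81 in trained and 9.49 in untrained muscle, against 8.05 in sedentary muscle. Within Pde4d, the strongest member had 8.65 in trained and 9.89 in untrained muscle, against 7.51 in sedentary muscle, and a Pde10a member stood at 8.30 in trained and 8.14 in untrained muscle, against 6.33 in sedentary muscle.

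Regulators of oxidative metabolism had members at 7 of 25 genes (28.0%): Ppargc1a, Esrrg, Rxra, Lpin1, Vgll4, Prkag2, a subunit of AMP-activated kinase, and Nrip1, a corepressor that opposes oxidative genes. Medians over the 31 members were 2.47 in trained and 1.45 in untrained muscle, and 19 of the 31 belonged to Ppargc1a. The leading Nrip1 member changed by 1.82 in trained and 1.33 in untrained muscle. Of glucocorticoid targets, 6 of 19 genes (31.6%) had members, including the factors Cebpb, Cebpd and Zbtb16 and the mTORC1 inhibitor Ddit4. Cebpb changed by 1.08 in trained and 1.59 in untrained muscle at a region 87390 bp from its start.

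Genes of Foxo factors and protein breakdown had members at 6 of 25 (24%). Upstream of Fbxo32, the muscle ubiquitin ligase atrogin-1, the level was 7.86 in trained and 8.50 in untrained muscle, against 6.35 in sedentary muscle. Foxo1 and the stress-induced mTORC1 inhibitor Sesn1 had members with changes of 1.36 and 2.01 in trained muscle and of 1.43 and 1.19 in untrained muscle. The Foxo1 member lay 334709 bp from the start site, and the Sesn1 member lay within a neighbouring gene, Armc2. For calcineurin, CaMK and Mef2, 5 of 23 genes (21.7%) had members, among them Hdac4, Mef2a and the calcineurin regulators Rcan1 and Rcan2. Hdac4 had 10.56 in trained and 10.54 in untrained muscle, against 9.37 in sedentary muscle. The Rcan2 member, whose CRE is printed above, had 9.02 in trained and 8.97 in untrained muscle, against 7.95 in sedentary muscle, and lay in an intron 4019 bp from the nearest start.

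Immediate early genes had members at 5 of 30 (16.7%), Myc, Nr4a2, Klf2, Klf4 and Klf6, and 7 had a shared gain that was listed at 6 h. Over all genes, 694 had a member and 904 had such a gain. The 6 members of the immediate early genes had medians of 0.75 in trained and 1.10 in untrained muscle. Klf4 stood at 8.08 in trained and 9.27 in untrained muscle, against 7.28 in sedentary muscle, and Nr4a2, an orphan nuclear receptor, at 8.97 in trained and 9.63 in untrained muscle, against 8.35 in sedentary muscle. Both changed more in untrained muscle. The circadian clock, at 4 of 24, and hypoxia and angiogenesis, at 4 of 24, each had members at 16.7% of genes. Rora, a nuclear receptor of the clock, changed by 0.76 in trained and 2.03 in untrained muscle, whereas Egln3, a prolyl hydroxylase that marks HIF for destruction, changed by 2.60 in trained and 1.82 in untrained muscle. The other 2 hypoxia members named by the rule, nearest to Hif1a and to the growth factor Vegfd, changed by 1.26 and 1.35 in trained muscle and by 0.82 and 0.76 in untrained muscle.

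Chromatin and transcription coregulators also had members at 16.7% (6 of 36 genes), led by Bach2, Mafk, which dimerises with Bach proteins, and Smarca2, a remodelling ATPase. Myostatin and TGF-beta signalling had 4 of 28 (14.3%), Mstn, its receptor subunit Tgfbr1 and the signal transducers Smad3 and Smad7. Smad3 had 7.94 in trained and 7.34 in untrained muscle, against 5.72 in sedentary muscle. Fewer genes had members in sarcomere and calcium handling (4 of 38, 10.5%), which included Actn2, the Z-disc alpha-actinin, with 9.17 in trained and 9.49 in untrained muscle, against 7.59 in sedentary muscle. Mylk3, a myosin light chain kinase, had a member across a start site at 8.37 in trained and 7.97 in untrained muscle, against 7.08 in sedentary muscle. Mybpc1, the slow myosin-binding protein C, had 8.56 in trained and 8.51 in untrained muscle, against 7.41 in sedentary muscle.

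Lower shares still were found in MAPK and stress kinase signalling (3 of 32, 9.38%), glucose and glycogen metabolism (1 of 27, 3.70%, Hk2) and the heat shock and unfolded protein response (1 of 28, 3.57%). In that last list Hspa8, the constitutive chaperone, changed by 1.01 in trained and 1.98 in untrained muscle.

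Markers of cell types were counted in the same way. None of 18 myofibre marker genes had a member, and 16 of the 18 had a promoter listed in some contrast. With members at 3.19% of all protein-coding genes, 0 of 18 lies close to that share. Endothelial and smooth muscle markers had members at 3 of 12 genes, Pecam1, Cdh5 and Egfl7, all genes of endothelial cells. Pecam1 stood at 8.86 in trained and 8.38 in untrained muscle, against 7.79 in sedentary muscle. Cdh5 stood at 7.5 in trained and 8.07 in untrained muscle, against 6.75 in sedentary muscle. Egfl7 stood at 9.61 in trained and 9.28 in untrained muscle, against 8.13 in sedentary muscle. As for every member, the rule placed all 3 above the sedentary level in both states, and the part of other cell types in the gains was not tested. Satellite cell markers had 1 of 10 (Sdc4), glial and tenocyte markers 1 of 10 (Mbp), and fibroblast and immune markers 0 of 12 each. Since regions that did not change are not in these tables, they do not measure the purity of the nuclei.

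At 72 h, 13 members (1.39%, 0.814 to 2.36) were listed in trained muscle, and all 13 were losses. The selection did not use that time, but its contrast shares the sedentary samples with the 0 h and 6 h contrasts. The 72 h shares are therefore not independent of the selection. By comparison 4.06% of all tested regions were listed as losses and 0.0422% as gains in that contrast. Shared gains listed at 6 h were listed as losses at 72 h in 1.49%, a difference of -0.0982 points (-1.15 to 1.02). As gains at 72 h, 0 of 935 members were listed, which allows a share of up to 0.409%, against 7 of 1142 shared gains listed at 6 h (0.613%), a difference of -0.613 points (-1.26 to -0.0961). In untrained muscle no region of any kind was listed at 72 h.

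A region of Mlip, which encodes a lamin-interacting protein of muscle, had levels of 9.95 at 0 h and 7.73 at 72 h in trained muscle and of 10.48 at 0 h in untrained muscle, against 8.96 in sedentary muscle. The rule placed it above the sedentary level at 0 h in both states, and at 72 h in trained muscle it was below that level, with a change of -1.23. Auts2, Nfil3, Ppp2r5a, Ahi1 and Stk32b followed, with changes at 72 h of -1.12, -0.97, -0.96, -0.95 and -0.92. Nfil3 is a clock-linked repressor, and its member, 3127 bp wide, had 11.83 at 0 h and 9.94 at 72 h in trained muscle and 12.00 at 0 h in untrained muscle, against 10.91 in sedentary muscle.

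A transient region did not mean that its gene was free of changes at 6 h. Of the 694 genes with a member, 536 (77.2%) had another region listed at 6 h, compared with 51.6% of the 11783 genes with any region listed at 0 h. In trained muscle 24.4% of the genes with a member had a gain at 6 h and 62.7% a loss, against 8.73% with a gain and 40.3% with a loss among those 11783 genes. In untrained muscle 51.2% had a gain at 6 h and 41.5% a loss, against 21.8% with a gain and 22.1% with a loss. A shared gain that was listed at 6 h lay at 200 of the 694 genes (28.8%), against 7.67% of the 11783. Regions lost at 0 h in trained muscle were present at 540 of the 694 genes (77.8%), a smaller share than the 92.1% of the 11783, and regions lost at 0 h in untrained muscle at 460 (66.3%), against 59.3%. These shares are given without a test. Genes with more listed regions are more likely to appear in each of these counts.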

How the data were processed

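ATAC-seq reads of 21 samples were trimmed by the authors with Trimmomatic 0.39, aligned with Bowtie2 2.4.4 to GRCm39 and sorted with SAMtools 1.15, and regions were called with Genrich 0.6.1, per the labels and the study's methods. Each exercised group was compared with sedentary muscle by DESeq2 within DiffBind 3.4.11, and regions under a false discovery rate of 0.05 were deposited and annotated with ChIPseeker 1.30.3. The deposited concentrations are the authors' group means of normalised read counts on the log2 scale. The deposited p-values and false discovery rates served only to recover the number of tested regions (63953) and for a stricter threshold. The authors' fold changes were not used. The tables used here hold no values per sample, so depth and replicate spread are unknown. The contrast of untrained muscle at 72 h listed no region.

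Changes were computed as differences of concentrations. Genes were taken from GENCODE M39 on GRCm39, because only 3.54% of 19072 deposited transcript positions fell within 1 kb of the GRCm39 one. Motifs were searched as exact letters on both strands with pysam 0.24.0 and Python 3.11.15. Shares carry 95% Wilson intervals, and differences 95% Newcombe intervals, which were tested on simulated data and assume independent regions. Intervals cover counting error only.

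The members and the 21 gene lists, 6 of them of cell type markers, were chosen with earlier results of these data known. Named regions were the 15 with the largest mean of the trained and untrained changes (1 per gene), the strongest of the 8 genes with the most members, up to 3 per list, 10 promoters, the 5 widest, the 5 with the largest difference between states in each direction, 6 listed at 72 h, and 3 on each side of the threshold. Predicted gene models were not named. A region that these choices would name is not reported here. Alternatives in thresholds, distances and windows are in the closing section.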

Additional observations from a re-analysis of the deposited data

How the results depend on the processing

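No paired analysis was possible because the tables hold group means without replicate numbers, and for the same reason no replicate could be left out. Of 43 alternatives over 24 results, 23 stayed within 1.5 times the count, or within the 95% interval of the share or median, and 20 moved beyond that. With a false discovery rate under 0.01 in both 0 h lists, members numbered 524 with median changes of 1.20 in trained and 1.24 in untrained muscle, and with a gain of at least 1 in both states they numbered 333, in both cases because fewer regions qualify. Requiring no overlap at 6 h left 935 members, keeping losses at 6 h gave 1013, and dropping those listed at 72 h gave 922. The first, counted among the 23, could hardly move the count, since the 0 h and 6 h contrasts tested 63953 regions with shared coordinates. With a 500 bp window the AP-1 share was 28.6%, against 62.5% of shared gains listed at 6 h, and the CRE share 6.95%, against 2.45%. Per kb of whole region, members held 0.0830 CRE and 0.482 AP-1 matches, against 0.0456 and 1.55 in shared gains listed at 6 h. The promoter share was 4.28% within 500 bp, 8.13% within 2000 bp and 3.44% at the stricter false discovery rate. Genes with a member numbered 439 by overlap, 721 by deposited names, which match for 32.6% of members, and 403 at the stricter rate. The share changing more in trained muscle passed to the majority, 55.6% against 47.1% of all members, among members with a gain of at least 1 in both states. Depth could not be judged from group means, so absence from a list at 6 h limits how firmly a gain can be called transient.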
